A study of Mus musculus with 12 samples.

Results

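The cluster of miR-183, miR-96 and miR-182 was described in mouse embryonic fibroblasts with or without ATF4 before and during endoplasmic reticulum stress. Its members were taken as the 3 miRNA names mmu-miR-183, mmu-miR-96 and mmu-miR-182 among the 650 miRNA names (611 of mouse) on an Agilent 1-colour miRNA array, and all 3 were on the array. The cells were C57BL/6 embryonic fibroblasts of the genotypes ATF4WT and ATF4KO, cultured with 2-mercaptoethanol and non-essential amino acids in every group, the treatment medium included. They were untreated or exposed to tunicamycin at 2 ug/mL for 12 h or 24 h. Each of these 6 groups was measured in 2 independent experiments, so on 12 arrays in all, and the study asked which miRNAs respond to 12 h of tunicamycin in a way that depends on ATF4. The labels do not say whether each genotype came from 1 line or from several embryos, nor how the Atf4 gene was disrupted, and the array holds no Atf4 mRNA probe, so the genotype labels could not be checked here.

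The 3 miRNAs are processed from 1 primary transcript, a locus best known from hair cells of the inner ear, photoreceptors and other sensory cells, where all members are abundant; fibroblasts are not a classical site of its expression. Tunicamycin blocks N-linked glycosylation, so that unfolded proteins accumulate in the endoplasmic reticulum. The stress sensor PERK then raises translation of ATF4, a transcription factor of amino acid and redox genes, and the sensor IRE1 cuts selected RNAs. The precursor of miR-96 has been described as one of the RNAs that IRE1 cuts, and miR-96 and miR-182 have both been described as repressing Foxo1, a transcription factor of stress and cell cycle genes.

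The mature sequences are shown because the 3 members differ in the seed, the bases that pair with target mRNAs. They are the 5p arms from RefSeq (GRCm38.p6), 5′ to 3′, with the seed, bases 2 to 8, in capitals. The array names carry no arm and were read as the 5p arm, since the array lists the 3p arm of miR-183 separately as miR-183*.
miR-183: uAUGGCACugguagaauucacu
miR-96: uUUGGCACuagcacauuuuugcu
miR-182: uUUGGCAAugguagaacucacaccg
Counting from the 5′ end, the seeds of miR-183 and miR-96 differed by A2U and those of miR-96 and miR-182 by C8A, while miR-183 and miR-182 differed at both positions (A2U and C8A). No 2 members therefore shared a seed. Of the mature mouse miRNAs in the RefSeq table, 1 other had one of these seeds: miR-1271-5p, with the seed of miR-96 (UUGGCAC), which was not on the array.

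The precursors lie on the minus strand of mouse chromosome 6 in GRCm38.p6. Mir183 spans chr6:30169668-30169737, Mir96 spans chr6:30169446-30169551 and Mir182 spans chr6:30165918-30165992, in that order along the transcript. Mir183 and Mir96 are 116 bases apart and Mir96 and Mir182 3453 bases apart, and all 3 hairpins lie within the span of the non-coding RNA gene Mirc35hg (chr6:30158640-30174125). The hairpins are shown with the measured arm in capitals, to place the arm that the array reads within each precursor.
Mir183: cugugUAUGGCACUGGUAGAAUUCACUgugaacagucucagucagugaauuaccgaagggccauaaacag
Mir96: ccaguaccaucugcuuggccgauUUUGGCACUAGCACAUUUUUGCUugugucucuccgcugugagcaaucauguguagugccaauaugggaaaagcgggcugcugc
Mir182: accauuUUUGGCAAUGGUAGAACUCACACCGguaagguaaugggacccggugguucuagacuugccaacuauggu
A motif read by dimers of ATF4 and C/EBP proteins, TGATGNAA on either strand, was not found in the RefSeq window of Mirc35hg from 250 bases before to 50 bases after its start; 3.97% of 32851 such windows held it.

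A level is the sum of a miRNA's probe signals relative to the 75th percentile of 82 miRNAs measured on all arrays, given on the log2 scale unless called linear; a level below 0.0328 (log2 -4.93) was set to that floor. Across arrays this divisor ran from 204 (ATF4KO 24 h, replicate 1) to 791 (ATF4KO untreated, replicate 2) arbitrary units, and the number of mouse miRNAs well above background from 92 to 164. All 4 untreated arrays were on slide 1 and all 8 tunicamycin arrays on slide 2, so a treatment effect cannot be told apart from one of slide. On both slides ATF4WT arrays lay in row 1 and ATF4KO arrays in row 2, so genotype and slide row cannot be told apart either. Of 12 fibroblast or mesenchymal miRNAs, 11 were well above background on at least 1 array and 8 on all, with a summed linear level of 45.9 to 46.5 in untreated ATF4WT cells, 21.4 to 28.1 after 12 h and 28.1 to 33.1 after 24 h. In ATF4KO cells that sum was 37.5 to 37.8 untreated, 32.7 to 33.9 at 12 h and 29.9 to 39.2 at 24 h; its part in the members' differences was not tested. None of 7 epithelial miRNAs was well above background on any array (summed level 0 to 0.0151). Among 8 neural and sensory miRNAs outside the cluster, 1 (miR-211) was well above background, on 1 array, and the list summed to 0.0165 to 0.159.

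miR-96 and miR-183 were well above background on all 12 arrays, and miR-182 on 4. A miRNA counts as well above background on an array where at least 50% of the spots of 1 of its probes carry the scanner software's flag. By mean linear level miR-96 ranked 56, miR-183 ranked 87 and miR-182 ranked 142 among the 145 mouse miRNAs tested, those that reached this mark on each array of 1 or more groups. The rank says where a signal lies on the array and not which miRNA is more abundant, since probes bind with different strength. miR-182 passed that filter only through untreated ATF4KO cells.

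**Figure D1:**
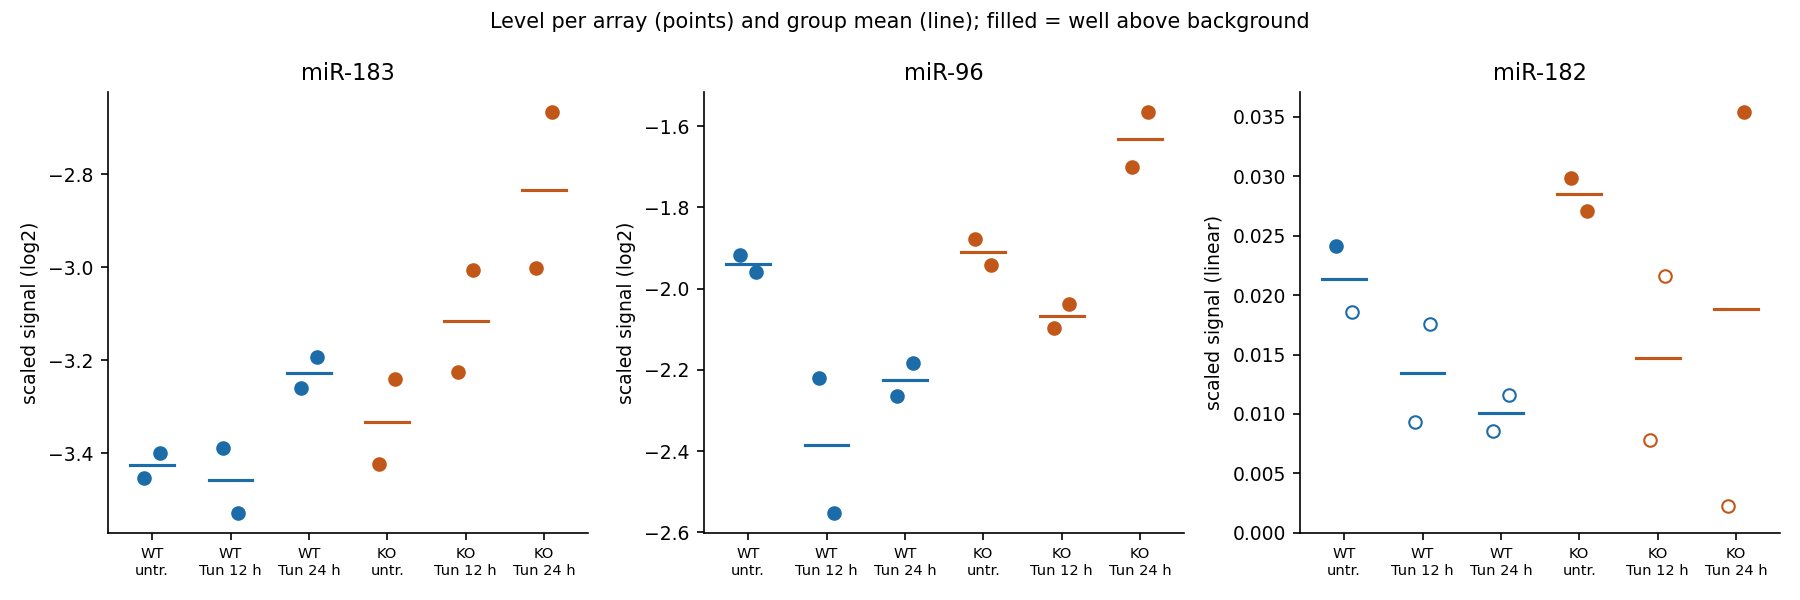
Level of each member on each array by group, as log2 scaled signal for miR-183 and miR-96 and as linear scaled signal for miR-182; points are arrays (filled where well above background), lines are means of 2 arrays. miR-96 is lowest in ATF4WT cells under tunicamycin and highest in ATF4KO cells at 24 h (-1.70 and -1.57), and miR-182 has filled points on 4 arrays.

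miR-96 fell in ATF4WT cells at 12 h of tunicamycin and was higher in ATF4KO than in ATF4WT cells at 24 h. These were the differences that passed the test (adjusted p under 0.05) among the 11 comparisons made for it. In untreated ATF4WT cells its log2 level was -1.92 and -1.96 on the 2 arrays, after 12 h it was -2.22 and -2.55, and after 24 h it was -2.27 and -2.18. Both tunicamycin pairs lay below both untreated arrays, and they overlapped each other. In ATF4KO cells the untreated arrays gave -1.88 and -1.94, the 12 h arrays -2.10 and -2.04, and the 24 h arrays -1.70 and -1.57. There the 12 h pair lay below the untreated pair and the 24 h pair above it. From highest to lowest, the group means were -1.63 ± 0.09 (SD, n = 2) in ATF4KO cells at 24 h, -1.91 ± 0.05 in untreated ATF4KO cells, -1.94 ± 0.03 in untreated ATF4WT cells, -2.07 ± 0.04 in ATF4KO cells at 12 h, -2.22 ± 0.06 in ATF4WT cells at 24 h and -2.39 ± 0.23 in ATF4WT cells at 12 h. Of the neighbours in that order, the untreated groups overlapped each other, as did the 2 ATF4WT tunicamycin groups. How many of all tested miRNAs had groups that lay apart as those of miR-96 did is not given here. Their median change from untreated was -0.32 at 12 h and -0.17 at 24 h in ATF4WT cells, and 0.06 and 0.19 in ATF4KO cells.

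The fitted change of miR-96 in ATF4WT cells at 12 h was -0.45 ± 0.12 (SE), a ratio of 0.734 (95% interval 0.604 to 0.890), with an adjusted p of 0.0303 in limma with Benjamini-Hochberg adjustment over the 145 miRNAs. In that comparison 31.0% of all tested miRNAs were called, 44 of 45 of them lower, and the median over all tested was -0.32, so miR-96 lay 0.13 below the median miRNA. The call was lost on leaving out any 1 of 9 of the 12 arrays (adjusted p 0.0512 to 0.126), arrays of other groups among them, and without replicate 2 of ATF4WT 12 h the change was -0.28 (adjusted p = 0.121). It was not called under any of the 4 other scalings or with normexp background correction, and ranged from -0.14 with normexp to -0.64 without scaling. Those scalings also moved the median miRNA, from -0.50 to -0.02, and relative to it miR-96 lay at -0.29 to -0.13.
At 24 h in ATF4WT cells the change of miR-96 was -0.29 (adjusted p = 0.137; 15.2% of miRNAs called). In ATF4KO cells it was -0.16 at 12 h (adjusted p = 0.606; 1.38% called) and 0.28 at 24 h (adjusted p = 0.264; 2.76% called), a value that ran from -0.86 to 0.03 under the 4 other scalings. The ATF4KO arrays at 24 h differed in brightness, with processed signals of 62.7 and 191 arbitrary units for miR-96 before scaling, which scaling brought to linear levels of 0.308 and 0.338.

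Between genotypes, miR-96 did not separate in untreated cells, where ATF4KO minus ATF4WT was 0.03 (95% interval -0.25 to 0.31, adjusted p = 0.895 in limma). There 32.4% of miRNAs were called, 37 of 47 of them lower, and the median over all was -0.49. Relative to that median miR-96 lay at 0.52. Under the 4 other scalings the difference was 0.35 to 0.61 and was not called. Relative to the median miRNA of the same scaling the difference then lay at 0.55 to 0.61. At 12 h it was 0.32 (0.04 to 0.60; adjusted p = 0.0974; 24.8% called). At 24 h it was 0.59 ± 0.12 (SE), a ratio of 1.51 (1.24 to 1.83), with an adjusted p of 0.0187 in limma, where 15.2% of the miRNAs were called, 11 higher and 11 lower (2 and 3 with median scaling, 4 and 2 without scaling), and the median over all was 0.00. The ATF4KO arrays exceeded the ATF4WT arrays of the same scan by 0.57 and 0.62. Leaving out either ATF4WT array at 24 h ended the call (adjusted p 0.1004 and 0.0704), as did each of the 4 other scalings; it kept its direction with a range of 0.10 to 0.68 under these and turned to -0.11 with normexp correction. Relative to the median miRNA of the same scaling it lay at 0.50 to 0.68.
The change from untreated to 24 h was larger by 0.56 in ATF4KO than in ATF4WT cells (interval 0.17 to 0.96), which did not pass (adjusted p = 0.0761 in limma, 8.28% of miRNAs called). The median miRNA differed by 0.34 there, so miR-96 lay 0.22 above it, and 0.01 to 0.19 above it under the 4 other scalings. At 12 h the difference of changes was 0.29 (adjusted p = 0.299 in limma, 22.8% called), against a median of 0.48. Under the 4 other scalings that difference of changes turned direction at 12 h (-0.61 to -0.21). At 24 h it became a call when either ATF4WT 12 h array was left out (adjusted p = 0.0474 for each).

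miR-183 did not pass the test (adjusted p under 0.05) in any comparison: limma called it in 0 of 11, with 3 of the 11 at an unadjusted p under 0.05. Its log2 level in ATF4WT cells was -3.45 and -3.40 untreated, -3.39 and -3.53 at 12 h, and -3.26 and -3.19 at 24 h. In ATF4KO cells it was -3.42 and -3.24 untreated, -3.22 and -3.01 at 12 h, and -3.001 and -2.67 at 24 h. The 2 highest values were thus those of ATF4KO cells at 24 h, the lower of which lay next to the higher 12 h value, and in ATF4WT cells the 12 h arrays fell on both sides of the untreated ones. In order, the group means were -2.83 ± 0.24 (SD, n = 2) in ATF4KO cells at 24 h, -3.12 ± 0.15 in ATF4KO cells at 12 h, -3.23 ± 0.05 in ATF4WT cells at 24 h, -3.33 ± 0.13 in untreated ATF4KO cells, -3.43 ± 0.04 in untreated ATF4WT cells and -3.46 ± 0.10 in ATF4WT cells at 12 h. Each of the last 4 steps in that order joined groups whose arrays overlapped.

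The largest fitted difference of miR-183 was the change of 0.50 ± 0.14 (SE) in ATF4KO cells at 24 h (ratio 1.41, interval 1.13 to 1.77; adjusted p = 0.127), which ran from -0.64 to 0.25 under the 4 other scalings. Without replicate 1 of ATF4KO 24 h, the dimmest array, that change was 0.67 (adjusted p = 0.0133). Changes in the other tunicamycin comparisons were -0.03 in ATF4WT cells at 12 h (interval -0.36 to 0.30), 0.20 in ATF4WT cells at 24 h (-0.13 to 0.53) and 0.22 in ATF4KO cells at 12 h (-0.11 to 0.55). ATF4KO minus ATF4WT was 0.09 untreated (-0.23 to 0.42), 0.34 at 12 h (0.01 to 0.67, adjusted p = 0.126 in limma) and 0.39 at 24 h (0.06 to 0.72, adjusted p = 0.118). Relative to the median over all tested miRNAs these differences were 0.58, 0.30 and 0.39. Under the 4 other scalings they ran from 0.42 to 0.82 untreated, 0.02 to 0.38 at 12 h and -0.10 to 0.48 at 24 h. The 12 h difference became a call when either ATF4KO 24 h array was left out (adjusted p = 0.0486 for each), and the 24 h one without replicate 1 of ATF4KO 24 h (0.56, adjusted p = 0.0304). The 24 h interval includes the 0.59 of miR-96. The difference of changes between genotypes was 0.25 at 12 h and 0.30 at 24 h, and neither passed (adjusted p 0.459 and 0.413 in limma). Both turned direction under the 4 other scalings, with values of -0.65 to -0.25 at 12 h and -0.77 to -0.02 at 24 h.
From 12 h to 24 h, miR-183 differed by 0.23 in ATF4WT and 0.28 in ATF4KO cells and miR-96 by 0.16 and 0.43. In both of these comparisons 0 of the 145 miRNAs passed in limma (0% called), while 5 in ATF4WT and 10 in ATF4KO cells had an unadjusted p under 0.05.

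**Figure D2:**
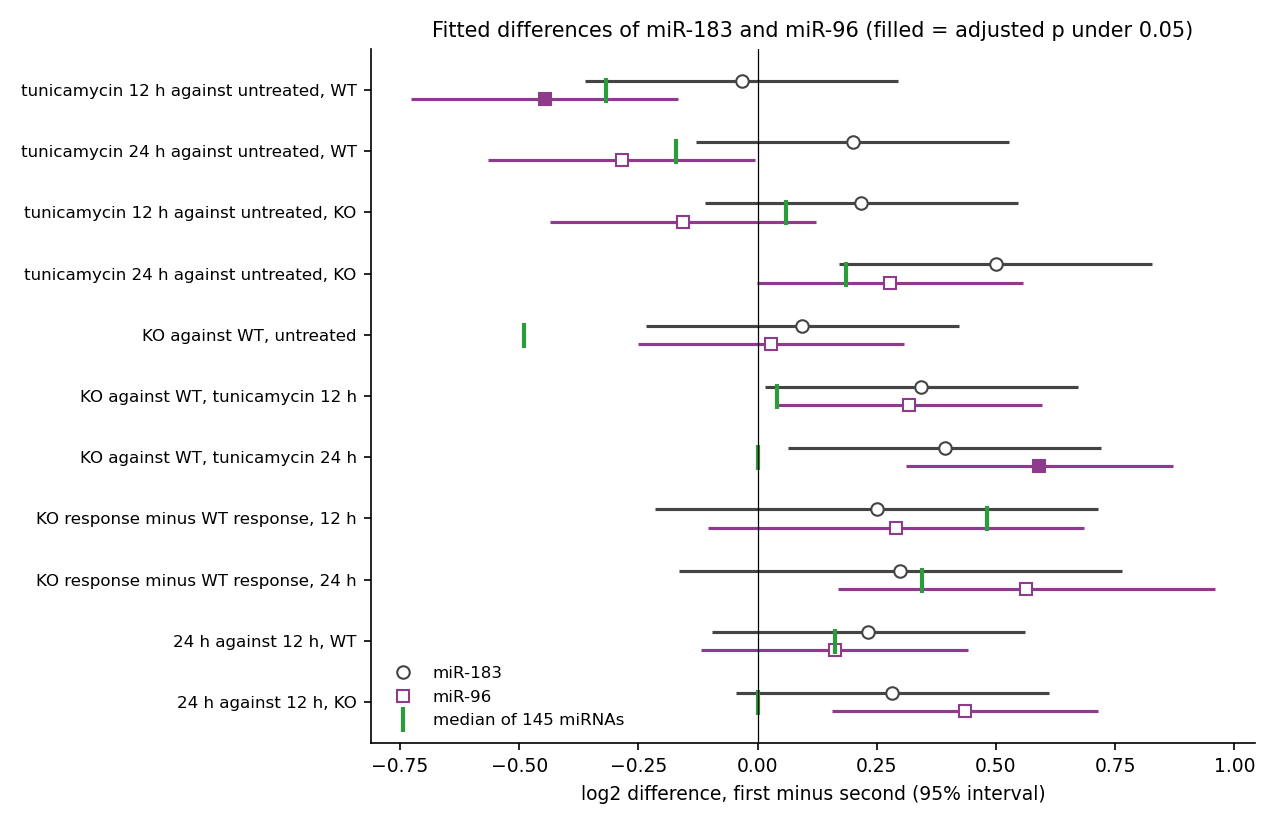
Fitted log2 differences of miR-183 (circles) and miR-96 (squares) in the 11 comparisons, with 95% intervals, against the median over the 145 tested miRNAs (vertical ticks); filled symbols passed adjusted p 0.05. Both filled symbols belong to miR-96, at -0.45 (ATF4WT, 12 h against untreated) and 0.59 (ATF4KO against ATF4WT, 24 h).

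Over the 3 times together, the mean levels of both well-measured members were higher in ATF4KO cells, and neither difference passed after adjustment. Within the 6 same-scan pairs, ATF4KO minus ATF4WT on the log2 scale ran from 0.02 to 0.62 for miR-96 and 0.03 to 0.53 for miR-183. How many of all tested miRNAs kept 1 direction over these pairs is not given here. Their median difference between genotypes was -0.49 untreated, 0.04 at 12 h and 0.00 at 24 h. The mean linear level of miR-96 was 0.276 on 6 ATF4KO arrays (0.234 to 0.338) and 0.223 on 6 ATF4WT arrays (0.171 to 0.265). An exact two-sided permutation test of genotype within each time gave p = 0.0185 for it, 0.0556 after Benjamini-Hochberg adjustment over 6 tests, where 0.00926 is the smallest p the design allows. For miR-183 the means were 0.119 (0.0932 to 0.158) and 0.0970 (0.0867 to 0.109), with the same exact p of 0.0185 and adjusted p of 0.0556. The direction depended on the scaling at single times: with the percentile over all miRNAs, ATF4KO minus ATF4WT was -0.01 for miR-96 at 12 h and -0.10 for miR-183 at 24 h on the log2 scale, and with the total gene signal the linear difference of miR-183 over the 3 times was -0.013. For tunicamycin against untreated, permuted within genotype, the adjusted exact p was 0.370 for miR-96 (0.242 on 8 arrays against 0.263 on 4) and 0.147 for miR-183 (0.114 against 0.0963).

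The ratio of miR-183 to miR-96 was mostly higher on tunicamycin than on untreated arrays, and the difference did not pass after adjustment. On the log2 scale miR-183 minus miR-96 was -1.53, -1.54, -1.44 and -1.30 on the 4 untreated arrays and between -1.30 and -0.97 on the 8 tunicamycin arrays, a mean of -1.45 against -1.08. The groups met at -1.30, where an untreated array of ATF4KO cells (replicate 2) was just above the lowest tunicamycin array (ATF4KO 24 h, replicate 1). This ratio within an array does not depend on the divisor used for scaling, though quantile normalization can change it. It was examined after its values were seen. An exact two-sided permutation test within genotype gave p = 0.00889, and 0.0533 after adjustment over 6 tests of such ratios. A ratio shows unequal change and not which member changed, and treatment coincided with slide. Between genotypes the ratio differed by -0.04 (exact p = 0.620).

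miR-182 lay at the edge of what the arrays measured. It was well above background on replicate 1 of untreated ATF4WT cells, on both arrays of untreated ATF4KO cells and on replicate 2 of ATF4KO cells at 24 h. Its linear level was 0.0241 and 0.0186 in untreated ATF4WT cells, 0.00935 and 0.0175 at 12 h, and 0.00857 and 0.0116 at 24 h. In ATF4KO cells it was 0.0299 and 0.0271 untreated, 0.00779 and 0.0216 at 12 h, and 0.00229 and 0.0354 at 24 h. The 2 ATF4KO 24 h arrays held the lowest and the highest value of all 12. These levels add a probe that averaged below 0 on every array, and by the other probe alone the array with the lowest level was not the lowest. Since 11 of 12 values were below the floor of 0.0328, its log2 differences are not read here. The exact permutation tests gave an adjusted p of 0.370 between genotypes (0.0207 against 0.0150) and 0.147 for tunicamycin (0.0143 on 8 arrays against 0.0249 on 4). Those 4 arrays include the untreated ATF4KO arrays, through which miR-182 passed the filter.

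Each member was read by 2 probes of 10 spots each, and the probes of a miRNA differed in brightness. For miR-96, probe A_54_P1331 averaged 20.7 to 75.7 and probe A_54_P1332 39.2 to 130.1 processed units over the arrays, with a median SD between spots of 9.66% and 6.68% of the mean. Both were well above background on all 12 arrays, and the dimmer one was 49.3% to 60.0% of the brighter. For miR-183, A_54_P2351 averaged 20.8 to 71.3 and was well above background on all 12 arrays, whereas A_54_P2350 averaged 4.598 to 19.2 and was so on 5, of which 4 were of ATF4KO cells. For miR-182, A_54_P2348 averaged 3.35 to 23.3 and was well above background on 4 arrays; A_54_P2347 averaged below 0 on all 12 arrays, with 0 of 115 spots flagged well above background. The signal of miR-182 thus came from 1 probe, while its level also added the probe below 0. By A_54_P2348 alone, with the divisor of the sum, replicate 1 of ATF4KO 24 h was at 0.0164 (linear) and not the lowest. Replicate 1 of ATF4KO 12 h was lower, at 0.0113.
Scaled by a divisor taken from the brightest probe of each miRNA, the brighter probe of miR-96 gave a genotype difference of 0.51 at 24 h (adjusted p = 0.0262 in limma), against 0.59 for the sum. Its change in ATF4WT cells at 12 h was then -0.18 (adjusted p = 0.374 in limma), against -0.45 for the sum. With the divisor of the sum, this probe went from -2.59 and -2.60 untreated to -2.86 and -3.21 at 12 h on the log2 scale. The dimmer probe went from -3.34 and -3.43 to -3.70 and -3.99. The smaller value of -0.18 thus came with the other divisor. Each probe of miR-96 and miR-183, tested by itself over the 3 times, had a higher mean in ATF4KO cells (unadjusted exact p 0.00926 to 0.0370), and none passed after adjustment over 12 probe tests (adjusted p = 0.111 for each of the 4). The dimmer probe of miR-183 was 22.1% to 29.9% of the brighter in ATF4KO cells and 19.7% to 25.3% in ATF4WT cells (exact p = 0.0185, 0.0556 adjusted over 6 tests).

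**Figure D3:**
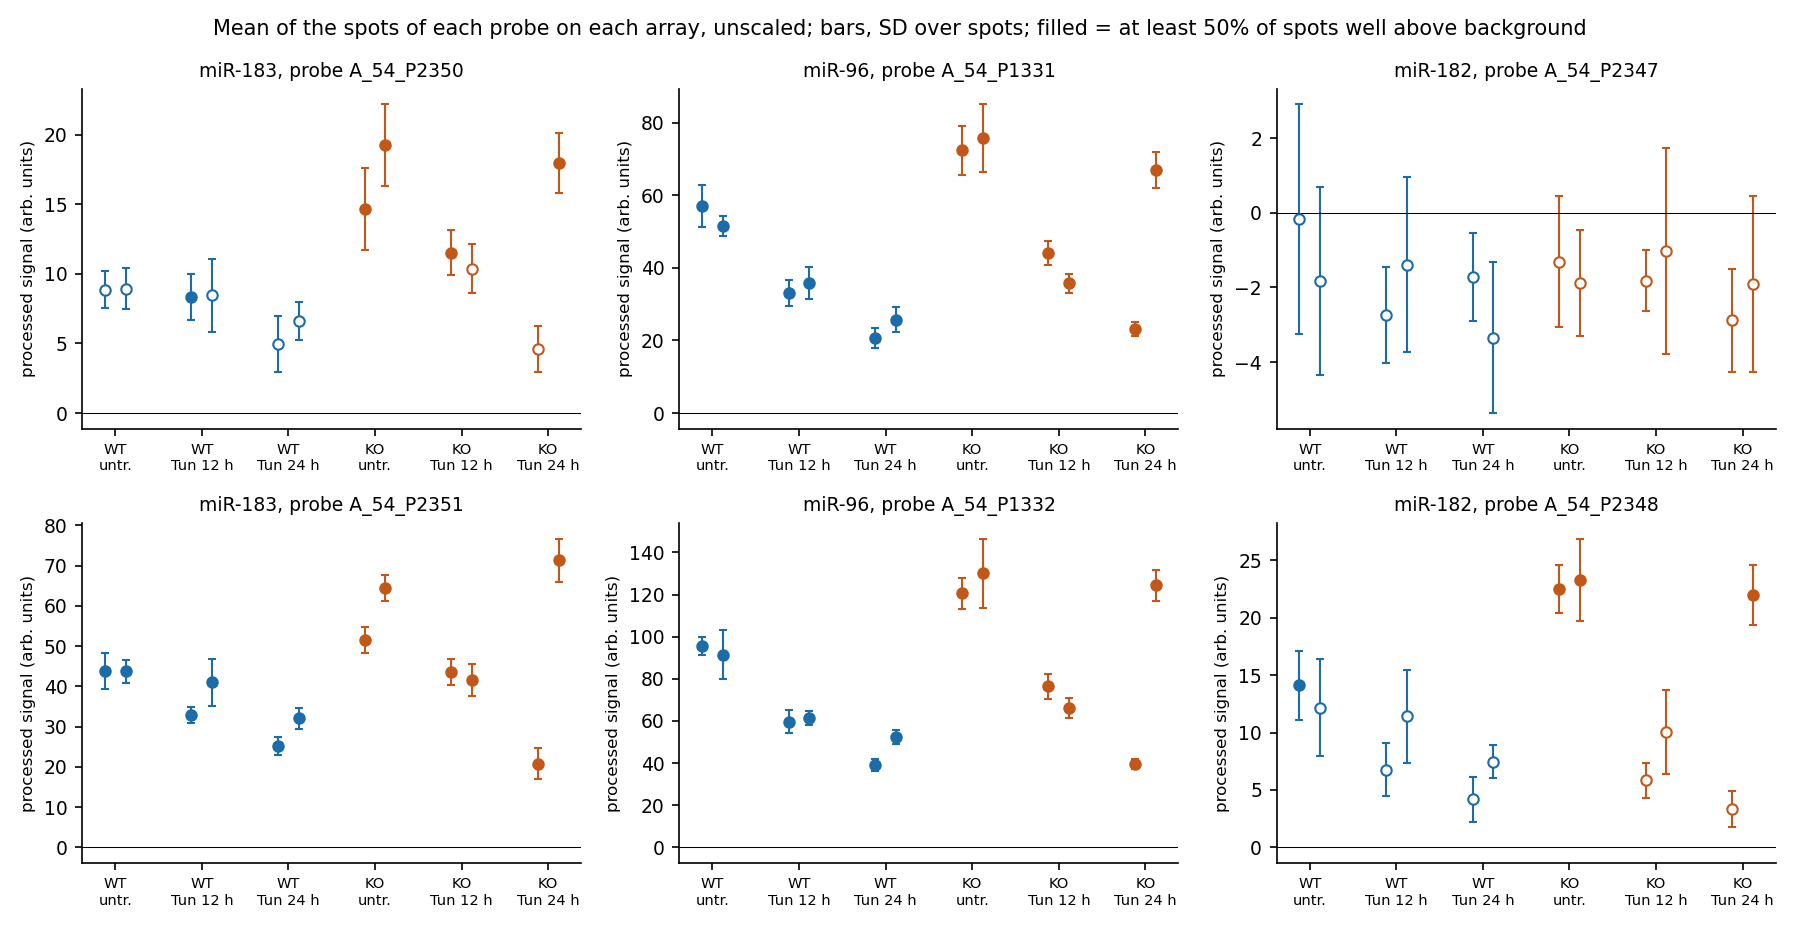
Mean processed signal of each probe on each array before scaling, in arbitrary units, with the SD over its spots as bars; filled points have at least 50% of spots well above background. Both probes of miR-96 are filled throughout, and probe A_54_P2347 of miR-182 lies below 0 on all 12 arrays.

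The authors' deposited values of miR-183 and miR-182 differed from what their probes showed, and those of miR-96 did not. The deposited table holds the log2 of the software's total gene signal, a sum over a miRNA's probes. For miR-96 that total equalled the sum of the 2 probe totals, within 1%, on all 12 arrays. For miR-183 it did so on 8 arrays. On the other 4 the total was 87.2 where the probes summed to 36.2 (ATF4WT untreated, replicate 2), 56.2 against 34.0 (ATF4WT 12 h, replicate 2), 144 against 19.99 (ATF4WT 24 h, replicate 1) and 96.04 against 16.9 (ATF4KO 24 h, replicate 1). In the total gene signal the ATF4WT 24 h replicates therefore stood at 144 and 26.3, while their summed spot signals stood at 30.1 and 38.7.
For miR-182 the total exceeded the probe sum on all 9 arrays where the software called it detected, from 2.71 times (ATF4KO untreated, replicate 1) to 61.0 times (ATF4WT 24 h, replicate 2, 170 against 2.79). The highest deposited miR-182 value thus sat on an array where neither of its probes was well above background.
Over all miRNAs, 617 of 1849 detected values (33.4%) departed from the probe sum by more than 1%, 550 of them upward. Every one of the 617 had a probe whose total was under 3 times its own error, and every one of the 1232 agreeing values had none. All 4 miR-183 departures (dimmer probe at 2.20 to 2.71 times its error) and all 9 of miR-182 were of that kind, and the dimmer probe of miR-96 was never under 6.85 times its error. With the total gene signal in place of the spot sums, the genotype difference of miR-183 at 12 h was -0.02 instead of 0.34.

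**Figure D4:**
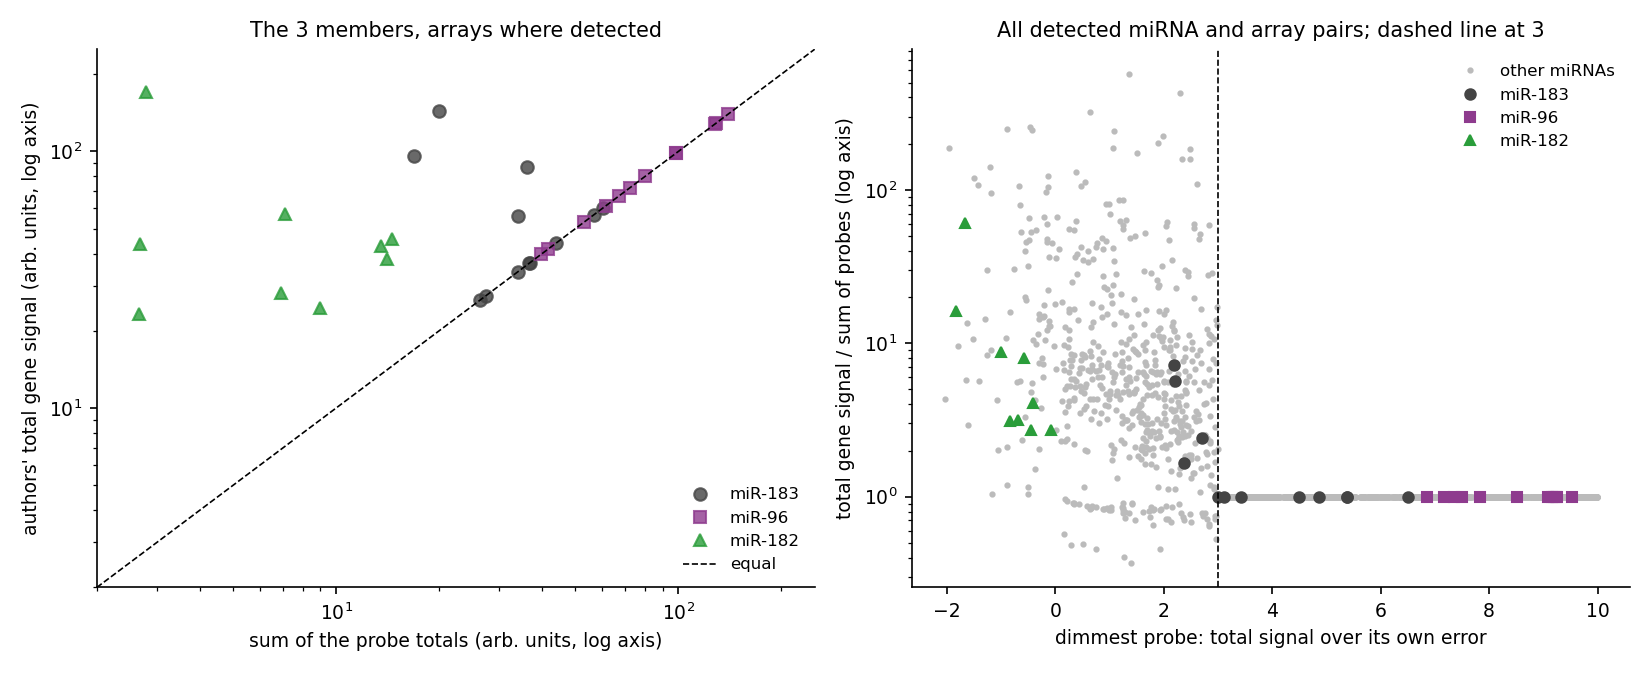
Left, the authors' total gene signal against the sum of the probe totals for the 3 members on arrays where detected, both in arbitrary units on log axes, with a dashed line of equality. Right, the ratio of the 2 (log axis) against the signal-to-error ratio of the dimmest probe for all 1849 detected values; values left of the dashed line at 3 leave a ratio of 1, as do 4 points of miR-183 and all 9 of miR-182.

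Other miRNAs tied to the cluster were read from lists. Of the opposite arms, miR-183* was on the array with 4 probes of 5 spots and was well above background on 0 of 12 arrays, and miR-96* and miR-182* were not among the array's names. Of 4 miRNAs linked with miR-96 through IRE1 or Foxo1 (miR-17, miR-34a, miR-125b-5p and miR-27a), 3 were tested and miR-17 was not well above background. In ATF4WT cells at 12 h, where miR-96 fell, miR-34a, which p53 induces, fell by 1.36 on the log2 scale (adjusted p = 0.0457 in limma), and the other two did not pass; the median of the 3 was -0.24 against -0.32 over all tested. In ATF4KO against ATF4WT cells at 24 h, where miR-96 was higher, miR-34a was higher by 1.59 (adjusted p = 0.0445) and miR-125b-5p lower, with a difference of -0.87 (adjusted p = 0.0278); the median of the 3 was 0.60 against 0.00. Under the 4 other scalings none of these 3 calls was made; miR-34a ranged from -1.55 to -1.06 and from 1.09 to 1.67, and miR-125b-5p from -1.36 to -0.42, in these comparisons.

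Clusters that are likewise made from 1 transcript gave these counts beside those of the miR-183 cluster. Of all tested miRNAs, 31.0% were called in ATF4WT cells at 12 h, 44 of 45 of them lower, and 15.2% between genotypes at 24 h. Of the miR-106b~25 cluster (miR-106b, miR-93 and miR-25), 3 of 3 fell in ATF4WT cells at 12 h, with a median of -0.84, and 0 of 3 passed between genotypes at 24 h (median 0.12). Of the miR-17~92 cluster, 5 of 6 were tested and 0 of 5 passed in ATF4WT cells at 12 h (median 0.19) or between genotypes at 24 h (median -0.70). Of miR-143 and miR-145, only miR-143 was tested, and it fell in ATF4WT cells at 12 h (-1.19; called under 1 of the 4 other scalings, with values of -1.38 to -0.84). Under the other scalings the 3 miR-106b~25 members stayed below 0 there (medians -1.05 to -0.55; 1 call without scaling, 0 with the others), and the miR-17~92 median ran from -0.09 to 0.48. These clusters are set side by side and were not tested against each other.

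The miRNAs whose levels followed miR-96 most closely over the 12 arrays were miR-361 (Pearson r = 0.92), miR-34c (0.86) and miR-34b-5p (0.81). For miR-183 they were let-7b (0.91), miR-1224 (0.80) and miR-23a (0.79). Without replicate 2 of ATF4KO 24 h that of miR-1224 was 0.51, and without both ATF4KO 24 h arrays the 3 values were 0.81, 0.48 and 0.57. The correlation of miR-183 with miR-96 was 0.65, which placed miR-96 at rank 11 of 144 for miR-183, and it was 0.43 without replicate 2 of ATF4KO 24 h and 0.20 without both ATF4KO 24 h arrays. All values share the arrays and their scaling, so they are descriptions. miR-34c and miR-34b-5p, which come from 1 transcript, were at the floor on all 4 ATF4WT tunicamycin arrays. The level of miR-34c in ATF4KO cells rose from -3.63 ± 0.04 (SD, n = 2) untreated to -2.54 ± 0.49 at 24 h (adjusted p = 0.0337 in limma), a change that was called under none of the 4 other scalings and ran from -0.05 to 0.84 under them. miR-361 was lowest on the same array as miR-96, replicate 2 of ATF4WT 12 h, where it was at the floor. let-7b was 0.38 to 0.77 untreated and 1.17 and 1.27 in ATF4KO cells at 24 h, so like miR-183 it had its 2 highest values there.

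**Figure D5:**
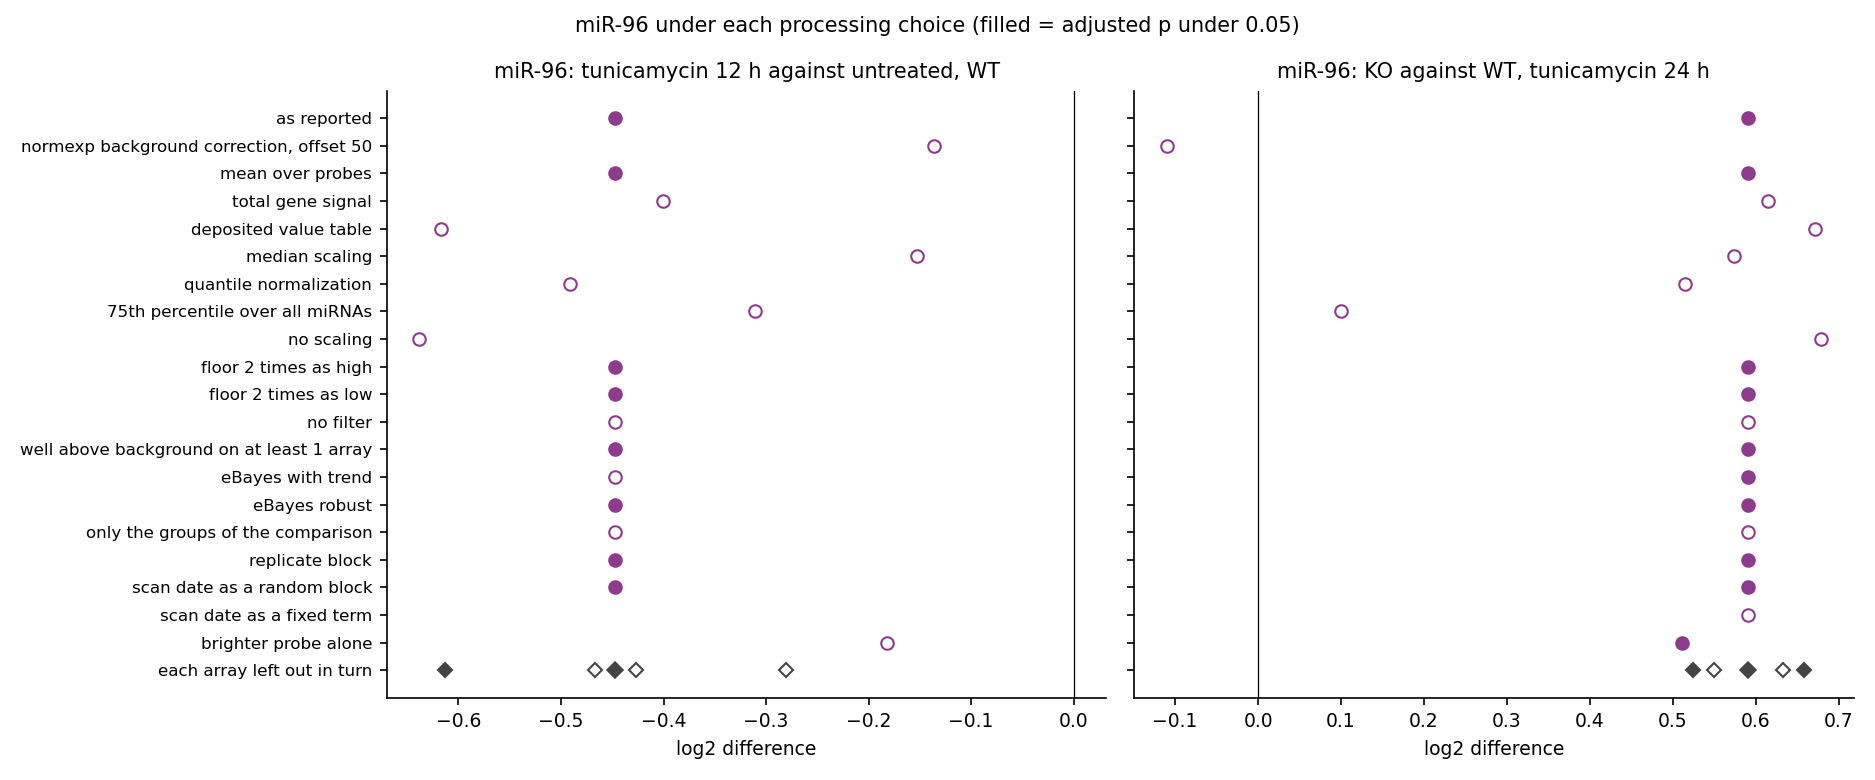
Log2 difference of miR-96 in ATF4WT cells at 12 h against untreated (left) and in ATF4KO against ATF4WT cells at 24 h (right) under each processing choice (circles) and with each array left out in turn (diamonds); filled symbols passed adjusted p 0.05. The left values stay below 0 (-0.64 to -0.14), and the right ones range from -0.11 with normexp correction to 0.68 without scaling.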

How the data were processed

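Total RNA was labelled with Cy3 and hybridised to Agilent 1-colour miRNA arrays, 2 for each of 6 groups, read with Agilent Feature Extraction 10.7.1.1 per the submitters' processing notes. Per the file headers, the intensity of a spot (processed signal, arbitrary units) was background-subtracted by the authors' software before deposit. The authors' deposited table is on the log2 scale and equals the log2 of the software's total gene signal, unscaled, which is 0.1 where a miRNA was not detected.

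Control and outlier spots were left out, spots averaged per probe and probes summed per miRNA. Sums were divided by each array's 75th percentile over 82 miRNAs well above background on all arrays, floored at 0.0328 and log2-transformed. limma 3.58.1 (R 4.3.3) was fitted to 145 mouse miRNAs with 6 group means and 11 contrasts, adjusted by Benjamini-Hochberg at 0.05. The linear levels of the members were tested by exact permutation. The files hold no mean spot signal, so normexp used the median one. Scripts were tested on simulated data.

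Members, lists and tests were chosen with earlier results of these data known. The text names the 3 members, for miR-183 and miR-96 the 3 miRNAs with the highest Pearson correlation, and up to 4 miRNAs of each list, in list order. The number of arrays limits precision, and the limma p-values measure a spread between the 2 arrays of a group that is pooled over the 6 groups. Over the tested miRNAs that spread was unequal between groups. Its SD was 0.15 in untreated ATF4WT and 0.13 in untreated ATF4KO cells. Under tunicamycin it was 1.22 at 12 h and 0.51 at 24 h in ATF4WT cells, and 1.10 and 0.95 in ATF4KO cells. The main fit did not pair samples by replicate number, which followed the scan within each slide. Over 15 pairs of groups the correlation of their replicate deviations ran from -0.54 to 0.95, with a median of -0.24, so it differed between pairs of groups.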

Additional observations from a re-analysis of the deposited data

Results flagged for a closer look

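At 24 h of tunicamycin the arrays of the genotypes lay on opposite sides of their untreated arrays for miR-96. Both ATF4WT arrays lay below both untreated ATF4WT arrays, and both ATF4KO arrays lay above both untreated ATF4KO arrays. How many of all tested miRNAs separated in this way is not given here. Their median change was -0.17 in ATF4WT and 0.19 in ATF4KO cells, and relative to it miR-96 lay at -0.11 and 0.09. Neither change of miR-96 passed in limma (-0.29 in ATF4WT cells, adjusted p = 0.137, and 0.28 in ATF4KO cells, adjusted p = 0.264), and the latter ran from -0.86 to 0.03 under the 4 other scalings. The fitted difference of the changes was 0.56 on the log2 scale and did not pass in limma (adjusted p = 0.0761); it became -0.68 with normexp correction and -0.51 with the 75th percentile taken over all miRNAs.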

How the results depend on the processing

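The 22 differences of miR-183 and miR-96 were refitted with each of 12 arrays left out and under up to 19 other settings (the scan as a fixed term could not be fitted for tunicamycin against untreated), 674 values in all. Of these, 633 kept their side of the threshold, 31 lost a call with the direction kept and 9 gained one. In 1 more, a called value both turned direction and lost its call. A further 56 values without a call turned direction. The fall of miR-96 in ATF4WT cells at 12 h was not called with normexp (-0.14), total gene signal (-0.40), the deposited table (-0.62), median scaling (-0.15), quantile normalization (-0.49), the percentile over all miRNAs (-0.31) or no scaling (-0.64). Nor was it called with the brighter probe alone and its own divisor (-0.18, chosen after the data were seen). At an unmoved -0.45, it was not called without the filter, with a variance trend or with only the groups compared. Leaving out arrays gave -0.61 to -0.28. The excess of miR-96 in ATF4KO cells at 24 h turned to -0.11 with normexp and was not called with total gene signal (0.62), the deposited table (0.67), median scaling (0.57), quantile normalization (0.51), the percentile over all miRNAs (0.10) or no scaling (0.68), nor, at 0.59, without the filter, with only the groups compared or with the scan as a fixed term. Omissions gave 0.52 to 0.66. The change of miR-96 in ATF4WT cells at 24 h was called with only the groups compared (-0.29, adjusted p = 0.0465). Calls gained on omitting 1 array came from ranges of 0.33 to 0.67 (miR-183, ATF4KO 24 h), 0.23 to 0.45 and 0.23 to 0.56 (miR-183 between genotypes at 12 h and 24 h), 0.15 to 0.48 (miR-96 between genotypes at 12 h), 0.50 to 0.63 (miR-96, difference of changes at 24 h) and 0.37 to 0.50 (miR-96, 24 h against 12 h in ATF4KO cells, called without replicate 1 of ATF4KO 24 h). The cause of these losses and gains was not tested. miR-182 was well above background on 4 arrays, on 7 by any flagged spot and on 9 by the authors' detection flag. No permutation test passed under any alternative.

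With the replicate block, both calls of miR-96 held (adjusted p 0.0359 and 0.0266) and no other member difference was called; the count of miRNAs called in ATF4KO cells at 24 h was 2 in place of 4. The number called among all miRNAs moved widely with the settings, from 0 to 61 for ATF4WT cells at 12 h (45 as reported) and from 0 to 44 between genotypes at 24 h (22 as reported). Of the scalings, unscaled levels gave 37 and 6 calls, median scaling 3 and 5, quantile normalization 4 and 0, and a percentile taken over every miRNA 0 and 0.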
